A study of Mus musculus with 8 samples.

Results

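The guanylate-binding protein (GBP) genes Gbp2 to Gbp9 were followed in the right cerebral cortex of mice with narrowed carotid arteries. The 8 genes were chosen by symbol, as the members of the family numbered from Gbp2 to Gbp9 among the 54752 genes of the count tables. Bulk RNA-seq was made from WT C57BL/6 mice (C57BL/6 J in the study's methods), 4 with a Sham operation and 4 with bilateral carotid artery stenosis (BCAS), 3 weeks after surgery, and the study describes the animals as adult males. In BCAS a fine wire coil around each common carotid artery restricts the blood supply of the forebrain, and the study fitted the tighter coil on the right, the side from which the RNA came. Sham mice carried no coil. Each library came from 1 mouse, and the comparison asks how expression in the cortex differs after weeks of reduced blood flow.

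GBPs are large GTPases of the dynamin superfamily that cells make in quantity after exposure to interferons, above all interferon gamma. They assemble on the membranes of vacuoles and bacteria inside cells and promote inflammasome signaling, and some carry a lipid anchor at the C terminus that holds them on membranes. In the brain, microglia, astrocytes, endothelial cells and infiltrating leukocytes can make them once an interferon signal is present. Their promoters are textbook examples of the interferon-stimulated response element (ISRE) and of the gamma-activated site (GAS), short DNA elements through which interferons act on transcription.

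All 8 genes lie in a pair of clusters. On mm10, the chromosome 3 cluster runs on the plus strand and holds Gbp5 (chr3:142493978-142522344), Gbp7 (chr3:142530342-142550149), Gbp3 (chr3:142560026-142573209) and Gbp2 (chr3:142620602-142638008), with Gbp2b and the pseudogene Gbp2-ps among them, over 175 kb. The chromosome 5 cluster runs on the minus strand and holds Gbp8 (chr5:105014150-105139540), Gbp9 (chr5:105077630-105139539), Gbp4 (chr5:105115767-105139586) and Gbp6 (chr5:105270702-105293698), with Gbp10 and Gbp11, over 332 kb. The annotation starts Gbp8, Gbp9 and Gbp4 at a common first exon, of which 60 to 61 bases are shared.

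RefSeq promoter windows on GRCm38.p6, from 250 bases before the start of a transcript to the bases just after it, were at hand for 4 of the 8 members, Gbp2, Gbp3, Gbp5 and Gbp7. Each was searched on both strands for the ISRE, read as TTTC, 2 bases of any kind and again TTTC, and the GAS written as TTCNNNGAA, motifs that did not overlap each other in these windows. The stretches around the ISRE matches are shown because all 4 genes, and their neighbor Gbp2b, hold one, with the plus strand printed and the matched letters in capitals:
Gbp2, chr3:142620596-142620625: tcttttagTTTCACTTTCactgtcttaagc
Gbp3, chr3:142559991-142560020: ggacacagTTTCAGTTTCTATTTCccagat
Gbp5, chr3:142496761-142496790: ttgtgtagTTTCAATTTCagtttagagaac
Gbp7, chr3:142530275-142530304: gtgtgcagTTTCAGTTTCagttctccatcc
Gbp2b, chr3:142594702-142594731: acttctaaTTTCACTTTCttctttatcact

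The ISRE letters end 50 bases before the start in Gbp2, 44 in Gbp7 and 156 in Gbp5, and Gbp3 has 2 overlapping matches that end 36 and 30 bases before its start. These starts are those of RefSeq. In Gbp2 and Gbp5 they lie downstream of the GENCODE gene starts printed above, so that the letters fall inside those gene spans. A second window of Gbp3, for a start further downstream, held neither motif. GAS letters were found at 2 places in Gbp5 and at 2 in Gbp7, and in neither Gbp2 nor Gbp3. Among all 32851 promoter windows of the same length, 2.98% held the ISRE, 7.02% the GAS and 0.332% both. These are matches of letters, and binding was not measured. Gbp4, Gbp6, Gbp8 and Gbp9 were not searched here.

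**Figure D1:**
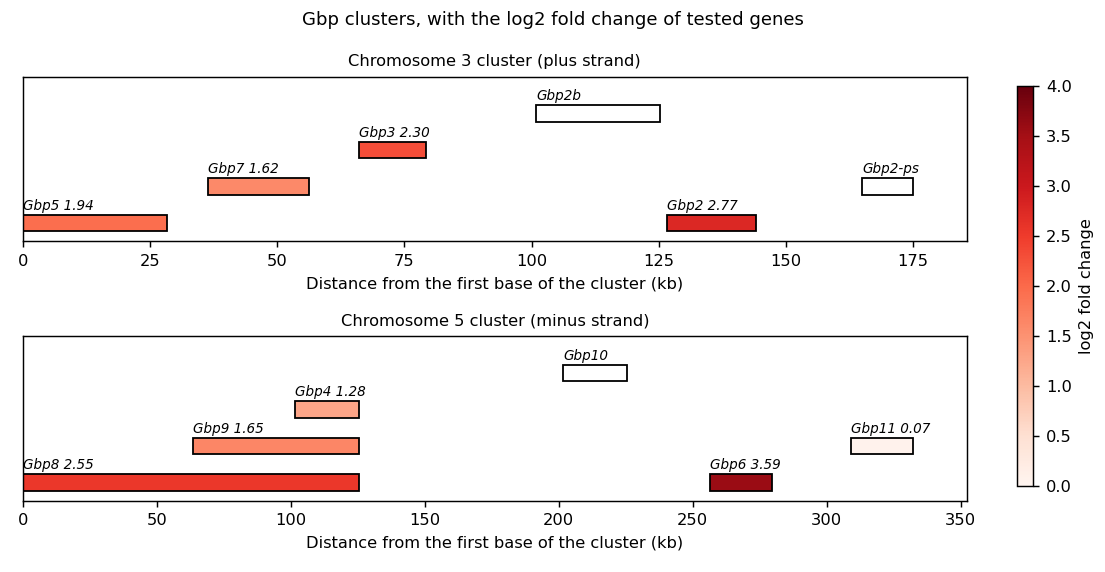
Map of the chromosome 3 and chromosome 5 clusters, with distance from the first base of each cluster in kb on the horizontal axis, genes as boxes spread over rows for legibility, and box color giving the log2 fold change of BCAS over Sham where a gene was tested (white, not tested). Fold changes above 1 on the log2 scale occur in both clusters, and Gbp11 at the edge of the chromosome 5 cluster is at 0.07.

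The libraries held 16759364 to 21794435 counts, and 3 counts in the smallest equal 0.179 CPM (counts scaled to a common library size) by its raw total. The CPM printed below were further normalized by trimmed mean of M values (TMM). BCAS against Sham was tested by the edgeR quasi-likelihood test over 17136 genes, and a gene was called at a Benjamini-Hochberg adjusted p under 0.05 with an absolute log2 fold change above 1. At this rule 1877 genes rose in BCAS and 220 fell (1.28% of those tested), and the median log2 fold change was -0.01. The cortical neuron markers summed to 2288 to 2706 CPM in Sham and 929 to 2012 CPM in BCAS, and they were present in every library. In Sham mouse 3 the choroid plexus markers summed to 779 CPM, against 18.2 to 75.2 CPM elsewhere, and in BCAS mouse 4 the striatal markers summed to 625 CPM, against 223 to 390 CPM elsewhere. All 8 members were also called without Sham mouse 3, and all 8 without BCAS mouse 4.

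All 8 members rose in BCAS, beside 11.0% of all tested genes called higher. Of these, 6 passed the filter on low counts in Sham alone, and Gbp6 and Gbp8 passed it only with the BCAS libraries, which favors a call. Their median log2 fold change was 2.12, and single genes ranged from 1.28 to 3.59. In 7 of the 8, every BCAS mouse lay above every Sham mouse, beside 18.5% of all tested genes, and Gbp4 was the exception. In bulk tissue, more cells of a type and more RNA per cell cannot be told apart.

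Gbp2 and Gbp5 are the members of the chromosome 3 cluster with a lipid anchor. Gbp2, which coats the vacuoles of intracellular pathogens, was at 3.92, 5.74, 5.09 and 4.77 CPM in Sham mice 1 to 4 and at 61.7, 10.6, 38.2 and 22.1 CPM in BCAS mice 1 to 4. BCAS mouse 1 stood highest and BCAS mouse 2 lowest of the BCAS mice, and the groups did not overlap. The rise was 2.77 on the log2 scale (SE 0.48, edgeR adjusted p = 0.00535). Gbp5, which promotes assembly of the NLRP3 inflammasome, was at 3.86, 6.8, 4.4 and 5.31 CPM in Sham and at 31.8, 9.22, 24.1 and 12.9 CPM in BCAS. The same BCAS mice stood highest and lowest, and Sham mouse 2 came closest to them. The log2 fold change of Gbp5 was 1.94 (SE 0.38, edgeR adjusted p = 0.00863).

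Gbp3 and Gbp7 lie between them. Gbp3 was at 5.97, 8.17, 5.78 and 7.6 CPM in Sham and at 54.5, 14.1, 36.7 and 30.1 CPM in BCAS, with no overlap and a log2 fold change of 2.30 (SE 0.36, edgeR adjusted p = 0.0038). Gbp7, which helps to assemble the NADPH oxidase on phagosomes, was at 8.13, 8.24, 7.09 and 9.9 CPM in Sham and at 38.6, 14, 28.2 and 21.4 CPM in BCAS. Its groups were also apart, and it had the smallest spread of the 8 in either group, with a coefficient of variation of 13.9% in Sham and 40.9% in BCAS. Its log2 fold change was 1.62 (SE 0.28, edgeR adjusted p = 0.0054). Of its exon bases, 11.3% are shared with the gene model Gm43802, on which reads could not be assigned to either.

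The chromosome 5 cluster held both the largest and the smallest fold change of the 8. Gbp6 was at 0.568, 0.936, 0.744 and 0.543 CPM in Sham, or 9 to 15 counts, and at 16.3, 3.14, 8.86 and 5.56 CPM in BCAS, or 61 to 371 counts. The groups were apart, with BCAS mouse 2 again the lowest of its group. Its log2 fold change of 3.59 (SE 0.52, edgeR adjusted p = 0.00302) ranked 281 of the 17136. Gbp6 shares 29% of its exon bases with the gene model Gm43302, and 64.5% of its 100-base windows recur in transcripts of other genes, mostly Gm43302 and Gbp10. Reads that fell on such bases may be missing from its count or come from its relatives.

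Gbp4 was at 5.34, 5.93, 6.63 and 4.1 CPM in Sham and at 21.3, 6.18, 14.8 and 11.1 CPM in BCAS. Here BCAS mouse 2 lay below Sham mouse 3, so the groups overlapped. The log2 fold change was 1.28 (SE 0.34, edgeR adjusted p = 0.0241), and the exact two-sided permutation test of the means gave p = 0.0571. The call of Gbp4 rested on single libraries: the edgeR adjusted p was 0.067 without Sham mouse 1, 0.0602 without Sham mouse 2, 0.069 without Sham mouse 4 and 0.0603 without BCAS mouse 3. Without BCAS mouse 1 its log2 fold change was 0.97.

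Gbp9 was at 6.99, 11.5, 8.75 and 7.42 CPM in Sham and at 46.2, 12.9, 29.8 and 19.8 CPM in BCAS. The groups were apart, by a narrow margin between Sham mouse 2 and BCAS mouse 2, and the log2 fold change was 1.65 (SE 0.36, edgeR adjusted p = 0.0127). Gbp8, the member with the fewest counts, had 4, 10, 7 and 6 counts in Sham and 104, 15, 47 and 29 in BCAS. In CPM its groups ran from 0.227 to 0.624 and from 0.773 to 4.57, without overlap, and the log2 fold change was 2.55 (SE 0.57, edgeR adjusted p = 0.0135). For the 7 members without overlap the exact permutation p was 0.0286, the smallest that 4 against 4 mice allow.

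**Figure D2:**
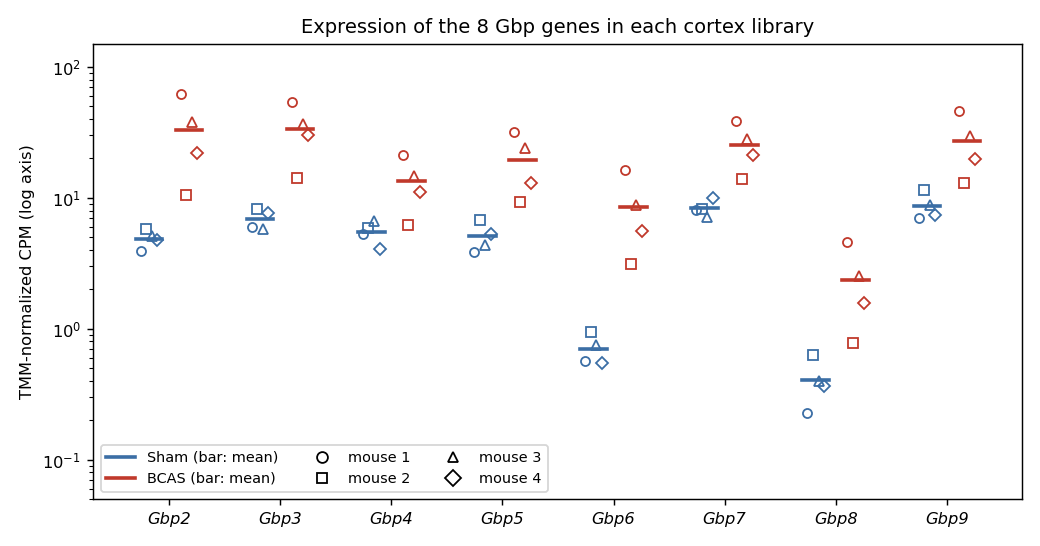
TMM-normalized CPM (log axis) of the 8 members in each library, with blue symbols for the 4 Sham mice, red symbols for the 4 BCAS mice, symbol shape for the mouse number and a bar for the group mean. BCAS mouse 1 is the highest and BCAS mouse 2 the lowest of the BCAS mice for each of the 8 genes, and only Gbp4 overlaps between the groups.

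The family holds 4 more genes in these clusters. Gbp10 had 0, 0, 2 and 0 counts in Sham and 79, 6, 37 and 17 in BCAS, too few for the filter of the edgeR test. Its groups did not overlap (exact permutation p = 0.0286), and its BCAS mean of 1.68 CPM was at least 9.44-fold higher than 0.178 CPM, the mean level of 3 counts in a Sham library. Without BCAS mouse 1 the mean was 1.08 CPM and the bound 6.07-fold, and BCAS mouse 2 alone stood 1.74-fold above that level. It shares 46.3% of its exon bases with Gm43302 and 73.5% of its 100-base windows with other genes, Gbp6 among them, so its counts are uncertain. Gm43302 itself had 4 counts in BCAS mouse 3 and none in the other libraries.

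Gbp11, annotated as a polymorphic pseudogene, had 34, 14, 26 and 17 counts in Sham and 43, 15, 31 and 23 in BCAS. The groups overlapped across their whole range, and its log2 fold change was 0.07 (SE 0.36, edgeR adjusted p = 0.893). Gbp2b, whose promoter window also held the ISRE letters, had no counts in Sham and 2, 0, 3 and 0 counts in BCAS, within the 3 counts that a reading of 0 allows. Gbp2-ps had 1 count in all, in BCAS mouse 2.

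Levels of different genes were compared as CPM per kb of exon. Summed over the 12 family genes this level was 8.36, 11, 9.12 and 9.35 in Sham and 70.4, 16.9, 46.2 and 31.1 in BCAS. The means were 9.45 ± 1.1 and 41.2 ± 22.9 (SD, n = 4), and the spread between BCAS mice was far wider than that between Sham mice. In Sham, the mean level was highest for Gbp3 (2.11 CPM per kb), followed by Gbp2 (1.94), Gbp9 (1.68) and Gbp7 (1.49), whose ranges overlapped from each to the next. Gbp5 (0.768) and Gbp4 (0.734) formed a lower pair that was apart from Gbp7, and Gbp6 and Gbp8 (both 0.117) lay apart below it. In BCAS, the order was Gbp2 (13.2 CPM per kb), Gbp3 (10.4), Gbp9 (5.25), Gbp7 (4.55), Gbp5 (2.94), Gbp4 (1.78), Gbp6 (1.42) and Gbp8 (0.687). The ranges of all neighbors overlapped there, since the mice differed so much, but inside each of the 4 BCAS libraries the order held for every neighboring pair except Gbp2 and Gbp3, which it fitted in 2 of 4. With the exon bases shared with other genes left out of the length, an alternative chosen after the values were seen, the BCAS means of Gbp6 and Gbp4 changed places (2 and 1.79 CPM per kb), Gbp4 was above Gbp6 in only 2 of the 4 BCAS libraries and Gbp9 above Gbp7 in only 2 of 4.

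The make-up of the family transcripts, as percent of the summed CPM per kb, also differed between the groups. Gbp2 took 18.6, 20.8, 22.2 and 20.3% in Sham and 34.9, 24.9, 32.9 and 28.2% in BCAS, so that its groups were apart. Gbp6 went from 1.23% ± 0.211 to 3.31% ± 0.4 (SD, n = 4) and was apart as well. In the other direction, Gbp4 held 7.83% ± 1.66 in Sham and 4.48% ± 0.393 in BCAS, Gbp9 17.6% ± 2.28 and 13.1% ± 1.18, and Gbp11 5.42% ± 2.47 and 1.38% ± 0.296 (SD, n = 4), each with groups apart. The Gbp10 share is not compared, since its Sham counts were all under the limit of 3. Shares of Gbp3, Gbp5, Gbp7 and Gbp8 overlapped between the groups. Gbp4 and Gbp9 thus had a lower share beside a higher CPM, and Gbp11 a lower share beside 1.33 ± 0.479 CPM in Sham and 1.4 ± 0.494 CPM in BCAS (SD, n = 4). Exact permutation tests of the shares gave p = 0.0286 for Gbp2, Gbp4, Gbp6, Gbp9 and Gbp11, the smallest that 4 against 4 mice allow. They gave 0.0857 for Gbp3 and Gbp7, 0.171 for Gbp8 and 0.343 for Gbp5. The shares within a library depend on each other, so these tests are not independent. Fold changes were not tested between members.

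Ratios between 2 members of a cluster were also taken within each library, where scaling between libraries has no part. The pairs were chosen with the fold changes known, mostly a larger over a smaller one, so they only describe the size of the shift. Per kb, Gbp2 over Gbp7 was 1.07 to 1.6 in Sham and 1.68 to 3.57 in BCAS, and Gbp6 over Gbp4 was 0.134 to 0.199 in Sham and 0.632 to 0.963 in BCAS. Both ratios were higher in each BCAS library than in any Sham library. Gbp9 over Gbp4, which share a first exon, was 1.9 to 2.82 in Sham and 2.59 to 3.14 in BCAS, and these ranges overlapped.

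**Figure D3:**
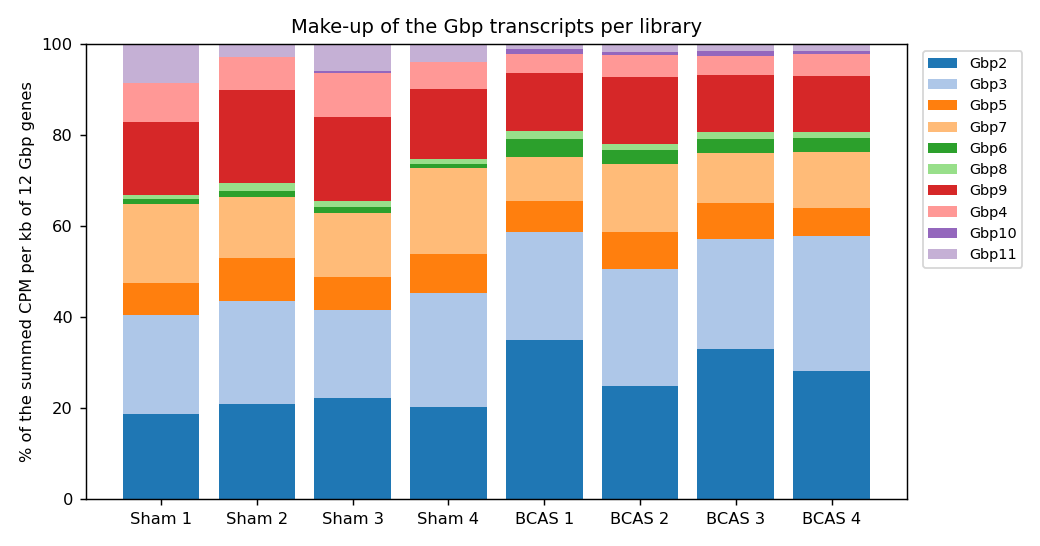
Share of each family gene in the summed CPM per kb of 12 Gbp genes (vertical axis, percent) in each of the 8 libraries, as stacked bars that add up to 100, with Gbp2b and Gbp2-ps too low to be drawn. The Gbp2 segment covers 18.6 to 22.2% in the Sham libraries and 24.9 to 34.9% in the BCAS libraries.

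The BCAS mice differed from each other in the same order for all 8 members, with mouse 1 highest, then mouse 3, mouse 4 and mouse 2. Averaged over the members, log2 CPM stood 2.93, 2.31, 1.73 and 0.93 above the Sham mean in mice 1, 3, 4 and 2. The distance between mice 1 and 2 was 2.01 on the log2 scale, and the SD among the Sham mice was 0.23. It was widest for Gbp2 (2.53) and narrowest for Gbp7 (1.45). The 8 genes share their libraries, so this order is 1 observation on 4 mice and not 8.

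Markers of several cell types were read in the same libraries. The 10 microglia markers were all called higher and summed to 385 to 467 CPM in Sham and 1842 to 7103 CPM in BCAS. On the log2 scale the sum stood 4.07, 3.11, 3.12 and 2.12 above the Sham mean in BCAS mice 1, 3, 4 and 2, more than the mean of the members in each mouse. P2ry12, a homeostatic microglia receptor, had a log2 fold change of 1.80, and C1qa, a complement subunit, of 4.31.

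Of the 10 lymphocyte markers 2 were tested and called higher, Cd4 and Cd8a, of which Cd8a passed the filter only with the BCAS libraries. Cd4 lost its call without Sham mouse 1, 3 or 4 or BCAS mouse 3, with edgeR adjusted p from 0.0676 to 0.0792. Of the list, 7 had at most 3 counts in every Sham library, and none was at 0 throughout. The sum of all 10 was 2.4 to 5.49 CPM in Sham and 64.4, 40.8, 13.5 and 5.98 CPM in BCAS mice 1, 3, 4 and 2. Cd3e, the T cell receptor subunit, had 3, 1, 2 and 2 counts in Sham and 139, 67, 27 and 5 counts in BCAS mice 1, 3, 4 and 2, the order of the Gbp genes. The summed level of the 8 markers of border-associated macrophages and monocytes was 13.4 to 17.1 CPM in Sham and 133, 84.9, 43.9 and 24.8 CPM in BCAS mice 1, 3, 4 and 2, although not every single marker had this order. Of the 6 tested 4 were called higher, among them Ccr2 and Ly6c2, which passed the filter only with the BCAS libraries.

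Astrocyte markers summed to 1966 to 2183 CPM in Sham and 3209 to 6571 CPM in BCAS. Of the 6, 2 were called higher (Gfap and Aqp4), beside 11.0% of all tested genes. The sum stood 1.67, 1.35, 1.34 and 0.64 above the Sham mean on the log2 scale in BCAS mice 1, 3, 4 and 2. Most of its rise, from a mean of 2064 to 5063 CPM, came from Gfap, which went from 155 to 2320 CPM. The markers not called had log2 fold changes from 0.12 (Aldoc) to 0.61 (Gja1). Mice 3 and 4 were nearly level in the sum, and several single astrocyte markers, such as Gja1, were higher in mouse 4 than in mouse 3. Endothelial markers summed to 300 to 391 CPM in Sham and 366 to 532 CPM in BCAS, with 0 of 8 called and mouse 4 above mouse 3. No neutrophil marker was tested, Ly6g and Elane were at 0 in every library, and the 6 markers summed to 0.125 to 0.801 CPM in Sham and 0.67 to 9.02 CPM in BCAS. Mural markers (5), oligodendrocyte markers (6), striatal markers (6) and choroid plexus markers (6) had 0 called. Called lower were 1 of 8 neuron markers (Snap25) and 1 of 6 cortical neuron markers (Tbr1), beside 1.28% of all tested genes. These calls did not survive the loss of Sham mouse 1 or 4 or BCAS mouse 1 or 4, nor for Tbr1 that of Sham mouse 2. The log2 fold changes were nevertheless all below 0, from -1.07 to -0.46 for neuron and from -1.10 to -0.53 for cortical neuron markers. By adjusted p without the fold threshold, 6 neuron and 4 cortical neuron markers were lower. The neuron markers summed to 9203 ± 583 CPM in Sham and 5293 ± 1609 CPM in BCAS (SD, n = 4). In the macrophage and monocyte list, Lyve1 was called only with both Sham and BCAS groups complete or without BCAS mouse 2 or 4. The part of the cell types in the rise of the Gbp genes was not tested.

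**Figure D4:**
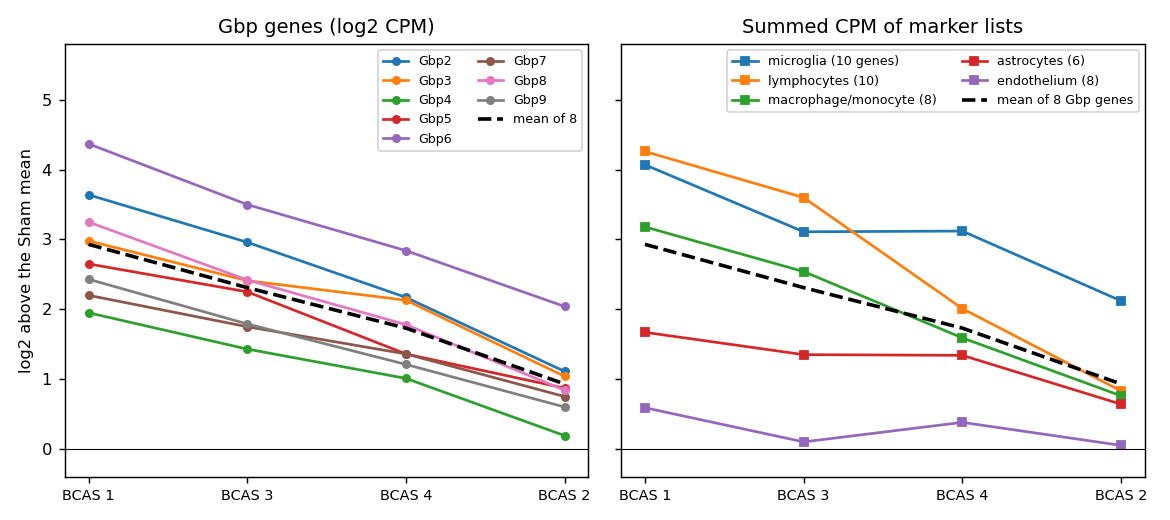
Distance above the Sham mean on the log2 scale (vertical axis) in the 4 BCAS mice, sorted by the members, for log2 CPM of the 8 members (left) and for the summed CPM of marker lists (right), with the mean of the members as a dashed line in both. The members fall together from mouse 1 (mean 2.93) to mouse 2 (mean 0.93), the microglia sum lies above that mean in all 4 mice, and the endothelial sum stays between 0.05 and 0.59.

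The tested genes most like the mean profile of the members, by the root-mean-square difference of log2 CPM over the 8 libraries, were Mylip (0.119), Ifngr1 (0.123), Irgm1 (0.131), Pdpn (0.133) and Fli1 (0.135). They were picked for closeness from all tested genes, and the members themselves lay 0.188 (Gbp3) to 0.866 (Gbp6) from their mean. Mylip encodes a ubiquitin ligase that acts on the LDL receptor, Pdpn the membrane glycoprotein podoplanin and Fli1 an ETS transcription factor. Mylip was at 18.4 to 22.8 CPM in Sham and 37.6 to 148 CPM in BCAS. The choice was loose, as only 1 of the 5 was chosen again without Sham mouse 2 and 2 without BCAS mouse 4.

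Upstream of the Gbp genes, of 9 ligands, receptors and Janus kinases 7 were tested, 2 rose by the full rule and 0 fell. Over all tested genes 11.0% were called higher and 1.28% lower, the shares to set beside the counts of this and the following lists. The median over the tested genes was 0.55 (log2). Ifngr1, the ligand-binding chain of the interferon gamma receptor, was at 13.9 to 18.1 CPM in Sham and 28.8 to 107 CPM in BCAS, with a log2 fold change of 2.05 (SE 0.34, edgeR adjusted p = 0.00476). Ifnar2, a chain of the type I receptor, had a log2 fold change of 1.78 (SE 0.28, edgeR adjusted p = 0.00408). The partner chains had log2 fold changes of 0.55 for Ifngr2 (adjusted p = 0.0153) and 0.45 for Ifnar1 (adjusted p = 0.0526), and Jak1 had 0.02 (adjusted p = 0.872). Transcripts of the ligands were scarce. Ifng had 0, 1, 0 and 0 counts in Sham and 3, 1, 4 and 0 in BCAS, and Ifnb1 had none in any library, so that neither could be compared at this depth.

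Of the 7 transcription factors below these receptors, 6 rose by the full rule and 0 fell. Without BCAS mouse 1 the count was 5, as Stat2 then had a log2 fold change of 0.91. Irf1, an interferon-induced activator, had a log2 fold change of 1.74 (SE 0.33). Irf7, an amplifier of type I interferon responses, had 4.10 (SE 0.58), and Irf8, also a lineage factor of microglia, had 3.96 (SE 0.45). Irf2, a repressor at ISRE sites, had 0.39 (SE 0.17, edgeR adjusted p = 0.109) and was not called. The 3 inhibitors of the pathway all rose, from 1.04 for Socs1 to 3.69 for Usp18 on the log2 scale, with Socs3 between them. The call of Socs1 was lost without Sham mouse 1 (log2 fold change 0.98, edgeR adjusted p = 0.0617), Sham mouse 4 (0.97, adjusted p = 0.0596), BCAS mouse 1 (0.87, adjusted p = 0.0401) or BCAS mouse 3 (1.02, adjusted p = 0.0517).

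The immunity-related GTPases, the smaller partners with which GBPs attack vacuoles, gave 7 of 8 called higher and a median log2 fold change of 2.35. Tgtp1 and Gm12250 passed the filter on low counts only with the BCAS libraries. Irgm1 was at 10.8 to 13.2 CPM in Sham and 22.7 to 82.9 CPM in BCAS (log2 fold change 2.14, SE 0.35, edgeR adjusted p = 0.00431). Gm12250, also known as Irgb10, which joins GBPs on bacterial membranes, had the highest value of the list, 3.63 (SE 0.67, edgeR adjusted p = 0.0067). Tgtp1 was the one gene not called, with a log2 fold change of 1.64 (SE 0.69, edgeR adjusted p = 0.0927) and overlapping groups. It has a close copy in Tgtp2, so that counts of both are uncertain, and Tgtp2 lost its call without Sham mouse 1 (edgeR adjusted p = 0.0509).

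Of the 8 inflammasome genes 7 rose, with a median log2 fold change of 2.89, and Casp4 and Il1b passed the filter only with the BCAS libraries. Casp4, the mouse receptor of cytosolic lipopolysaccharide, was at 0.362 to 0.629 CPM in Sham and 3.35 to 13.7 CPM in BCAS, a log2 fold change of 3.96 (SE 0.48, edgeR adjusted p = 0.00198). Nlrp3 had 3.55 (SE 0.40), Aim2, the DNA sensor, 2.74 (SE 0.37), and Gsdmd, the pore-forming protein, 2.88 (SE 0.44). Il18 had an adjusted p of 0.0284 in edgeR but a log2 fold change of 0.34, under the threshold.

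Not every relative or helper of the family rose. Of the 5 other large GTPases of the dynamin superfamily, the interferon-induced Mx1 (log2 fold change 5.70, SE 0.66) and Mx2 (2.60, SE 0.50) were called, both past the filter only with the BCAS libraries. The atlastins, which fuse endoplasmic reticulum membranes, were not called by the full rule. They were at -0.68 for Atl1 (edgeR adjusted p = 0.0307), -0.18 for Atl2 (adjusted p = 0.158) and 0.45 for Atl3 (adjusted p = 0.0172). The groups of Atl1 and of Atl3 did not overlap. Of the 6 enzymes that attach and trim the lipid anchor of CaaX proteins 0 were called in either direction, with a median of 0.12. Over all tested genes 11.0% were called higher and 1.28% lower, so 0 in a list this short is near those shares. By edgeR adjusted p without the fold threshold, Fnta (0.28, adjusted p = 0.0477) and Zmpste24 (0.63, adjusted p = 0.0186) were higher and Icmt (-0.26, adjusted p = 0.028) lower. Of the 8 autophagy conjugation proteins that place GBPs on membranes 0 were called, again near the shares over all tested genes. Their median was -0.02, from -0.62 for Gabarapl1 to 0.59 for Gabarap. By edgeR adjusted p without the fold threshold, Gabarap (adjusted p = 0.0138) was higher, and Gabarapl1 (adjusted p = 0.0255) and Gabarapl2 (adjusted p = 0.0424) were lower.

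**Figure D5:**
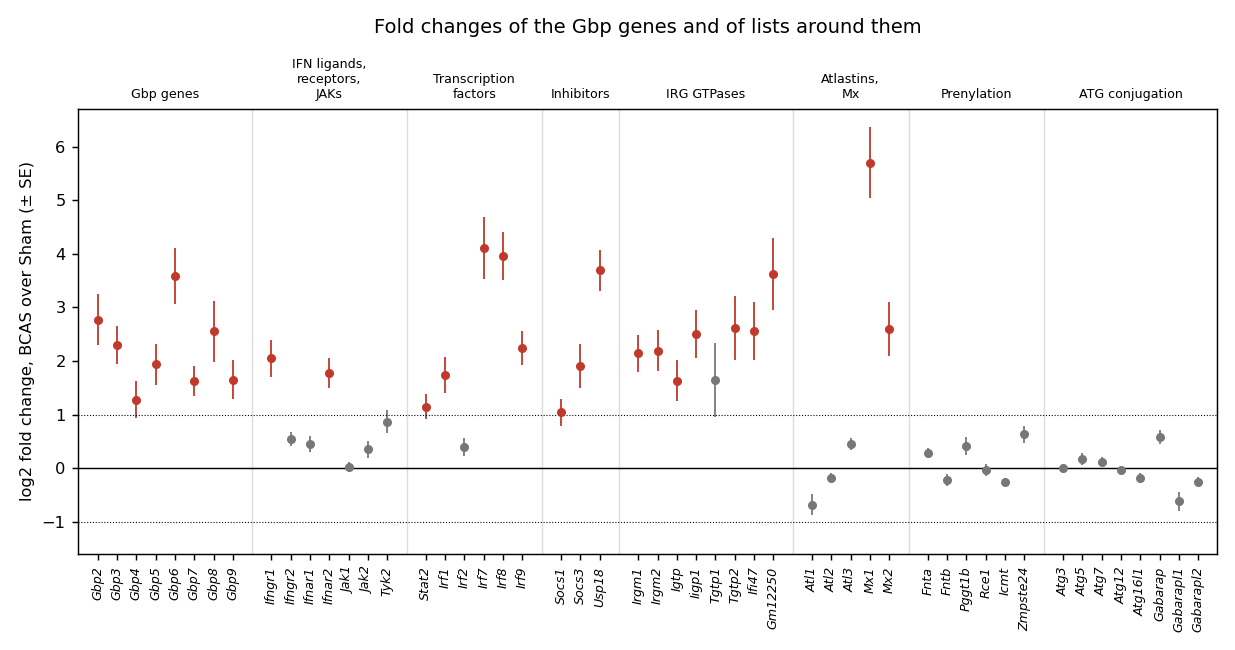
Log2 fold change of BCAS over Sham (vertical axis, points) with its SE (bars) for the members and tested genes of 7 lists around them, where red points were called higher, gray points were not called, and dotted lines mark the threshold of 1 in either direction. The 8 members lie between 1.28 and 3.59, and the prenylation and ATG conjugation genes between -0.62 and 0.63.

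The protein-coding neighbors of the clusters were read for comparison, chosen after earlier values of the family were known as the 2 nearest tested genes on each side. On chromosome 3, Pdlim5 had a log2 fold change of 0.89 (edgeR adjusted p = 0.0143), Bmpr1b 0.42 (adjusted p = 0.0309), Kyat3 0.18 (adjusted p = 0.574) and Gtf2b -0.10 (adjusted p = 0.615), so that none was called. On chromosome 5, Abcg3, 31.4 kb from the cluster, was called higher at 1.92 (SE 0.52, edgeR adjusted p = 0.0248), from 0.583 ± 0.329 to 2.23 ± 1.23 CPM (SD, n = 4). Its call was lost without Sham mouse 1, 2 or 4 or BCAS mouse 3, with edgeR adjusted p from 0.0662 to 0.0727. The other 3 were not called, at 0.58 for Zfp951 (edgeR adjusted p = 0.131), -0.64 for Lrrc8b (adjusted p = 0.0135) and 0.34 for Lrrc8c (adjusted p = 0.0258). Lrrc8b and Lrrc8c thus missed only the fold threshold.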

How the data were processed

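Total RNA of the right cerebral cortex was sequenced in 8 mice, 1 per library, and grouped by the labels. The authors trimmed read pairs with Trim Galore, aligned them to mm10 with HISAT2 and sorted them with SAMtools 1.9. The deposited values are raw counts per gene over exons, made by the authors with featureCounts without a strand option (version 2.0.1 and GENCODE vM20 per the file headers, 1.6.3 and RefSeq per the methods). No option was set for reads on more than 1 gene or place, so reads on bases shared by 2 genes were not assigned.

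From these counts, edgeR 4.0.16 (R 4.3.3) gave TMM factors, the filterByExpr filter (minimum count 10, minimum total 15; 17136 genes kept) and quasi-likelihood tests without covariates, with Benjamini-Hochberg adjustment over all tested genes. The thresholds for a call (adjusted p 0.05, log2 fold change 1 in either direction) follow the study, which used limma on normalized values. For a single gene, group means were permuted exactly over all 70 arrangements (two-sided). Log2 profiles carried a prior count of 2. CPM per kb used the merged exon length. The alternatives used DESeq2 1.42.0 and limma 3.58.1. Figures were drawn with matplotlib 3.10.9.

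Named genes were the members, all other Gbp genes, fixed lists (interferon ligands, receptors and kinases, transcription factors, inhibitors, immunity-related GTPases, inflammasome, dynamin-superfamily relatives, prenylation, autophagy conjugation, cell type markers) and the 5 genes with the most similar profile. The neighbors of the clusters and Gm43302 were added after values were seen. The members and lists were chosen with earlier results of these data known. One alternative, a gene length without shared exon bases, was added after values were seen. One gene of the lists is not reported here.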

Additional observations from a re-analysis of the deposited data

Results flagged for a closer look

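Among 22 groups of 4 libraries examined for a single library far from the other 3, 2 stood out. Chance alone gives about 1 in 20 for values that vary continuously. In both groups that stood out the other 3 libraries were at 0, where any count is flagged, so that rate does not apply. Gbp10 was at 0.114 CPM (2 counts) in Sham mouse 3 and at 0 in the other Sham mice. Gbp2-ps was at 0.0515 CPM (1 count) in BCAS mouse 2 and at 0 in the other BCAS mice. Both lie below the 3 counts that a reading of 0 allows, so neither library can be said to differ from the others in these genes. No member had such a library in either group.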

How the results depend on the processing

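Across 19 alternatives (normalization, filter, test, threshold, replicate block and each library left out), the number of members called higher was within 1.5 times the reported 8 in 18, and it was 3 with glmTreat, which tests against a log2 fold change of 1 and kept Gbp2, Gbp3 and Gbp6. With limma-voom Gbp4 was not called (adjusted p = 0.0571), and leaving out 1 library gave 7 or 8 members called. Apart from glmTreat, the other 7 members kept their call and direction under every alternative that tested them, and Gbp6 and Gbp8 were not tested when each library had to hold at least 10 counts. On log2(CPM + 1) with limma, where the added 1 shrinks low genes, the log2 fold change was 2.29 for Gbp6 against 3.59 and 1.14 for Gbp8 against 2.55. The genes called over the whole table were 5490 without a fold threshold and 744 with glmTreat, against 2097. Without a fold threshold the calls were 4 for interferon ligands and receptors, 4 for the other dynamin-superfamily GTPases, 3 for prenylation and 3 for autophagy conjugation. With glmTreat they were 1 for ligands and receptors, 3 for transcription factors, 1 for inhibitors and 4 for immunity-related GTPases. Of the other dynamin-superfamily GTPases 0 were called when each library had to hold at least 10 counts, since neither Mx gene was then tested. Of the 5 most similar genes, 1 to 4 were chosen again when 1 library was left out.

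Same-numbered Sham and BCAS libraries showed no common deviation (correlations -0.045, -0.103, -0.008 and 0.001), and differently numbered ones ran from -0.112 to 0.125. So few libraries cannot show whether the numbers pair the mice. With the replicate number as a block, 1809 genes and all 8 members were called, with 2 of 3 inhibitors. Scaling by library size alone moved the median log2 fold change of all genes by 0.089, and the size factors of DESeq2 and the upper quartile moved it by less. Depth limits Gbp8, with 4 to 10 counts per Sham library, and the family genes left untested.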
